A study of Mus musculus with 4 samples.

Results

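The set described here is the transcripts of oxidative phosphorylation, encoded partly in the nucleus and partly in the mitochondrial genome. Members were chosen by gene symbol, as all genes whose name began with Nduf followed by a, b, c, s or v, with Cox4 to Cox8 and a letter, with Uqcr, with Atp5 or with mt-, plus the Sdh genes for subunits a to d, and which had at least 50 unique molecular identifiers (UMIs, each the tag of 1 captured RNA molecule) over the 4 libraries. Of the 27998 genes in the files, 105 matched and 103 passed, 90 nuclear and 13 mitochondrial. The member just inside the minimum was Ndufa4l2 with 249 UMIs, and the genes outside it were Cox8c with 3 and Cox7b2 with 0. The nuclear members comprised 7 core subunits, 29 accessory subunits and 7 assembly factors of complex I. Further members were grouped as 4 for complex II, 8 for complex III, 18 for complex IV and 17 for ATP synthase. The complex IV group took in Ndufa4 and Ndufa4l2. The ATP synthase group followed the symbol and so holds Atp5s and Atp5sl, of which Atp5sl is an assembly factor. The mitochondrial members encode 7 subunits of complex I, 1 of complex III, 3 of complex IV and 2 of ATP synthase.

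Oxidative phosphorylation is carried out in the inner mitochondrial membrane, where complexes I to IV pass electrons from NADH and succinate to oxygen and pump protons, and ATP synthase uses the proton gradient to make ATP. Most subunits are translated in the cytosol from nuclear genes and imported, whereas a small set of core subunits is transcribed from the mitochondrial DNA and translated inside the organelle, so that working complexes need both sources. Neutrophils are known for relying largely on glycolysis, while macrophages and lymphocytes change their use of respiration with activation.

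CD45+ cells (hematopoietic cells) of the nasal mucosa of C57BL/6 mice, 8 weeks old, were profiled by droplet single-cell RNA sequencing in 4 libraries, 1 per group. The groups were Vehicle, Vehicle-OVA, Ribavirin and Ribavirin-OVA, where OVA is ovalbumin, the allergen used to induce allergic rhinitis, and ribavirin is an antiviral drug given as a nasal spray in a study of nasal commensal viruses. How many mice entered a library is not given in the sources used here, and the cell isolation is described as magnetic beads in one place and as a flow cytometry sort in another. Wherever 4 values follow each other for one quantity, they stand in the order in which the groups were just named. With 1 library per group no difference between groups could be tested, and every interval below is an exact 95% interval that covers counting error only.

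The libraries held 10311 to 28277 barcodes, 91742940 to 171873110 UMIs and a median of 3389 to 4952 UMIs per barcode, and 57 to 174 barcodes were shared by a pair of libraries. The smallest barcode of the Ribavirin library had 1782 UMIs, against 500 to 501 in the other libraries. Cells with at least 200 genes and 500 UMIs were assigned to classes by their own marker UMIs, and 9 classes had at least 50 cells in all 4 libraries, each named "-like" from its markers. Macrophage-like cells numbered 3528, 1282, 2572 and 1351, T cell-like cells 6042, 1187, 3808 and 1568, and neutrophil-like cells 7786, 11911, 7131 and 2760. In Vehicle-OVA, 63.5% of the cells were neutrophil-like, against 27.7% to 33.4% in the other libraries. Against the CD45+ label, 80 to 550 epithelial-like cells were present in each library. Cells with 10% or more mitochondrial UMIs made up 5.02% of the Ribavirin library, 6.67% of Vehicle-OVA, 7.09% of Vehicle and 11.4% of Ribavirin-OVA. They were kept here, and each main value is given also without them.

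Promoter sequence was examined first, because 90 genes on many chromosomes that share a pathway are commonly described as targets of nuclear respiratory factors. RefSeq promoters (GRCm38.p6, from 250 bases before to 50 bases after the start) were matched for 75 of the 90 nuclear members. The palindromic 8-base core of the NRF1 motif, CGCATGCG, which reads the same on both strands, occurred in 11 of these 75 (14.7%) and in 559 of 27025 promoters in all (2.07%). The motif CCGGAAGT of the ETS family factor GABPA, searched on both strands, occurred in 5 of the 75 (6.67%) and in 1164 in all (4.31%). Neither motif contains the other. The genes of 6 NRF1 matches belong to different complexes and differed in their ratios with OVA. These 6 matches are shown, which lay with 15 bases on each side before the RefSeq start and within the window. They are given 5′ to 3′ on the gene's strand with the motif in capitals.
Atp5g2, chr15:102671066-102671103, minus strand: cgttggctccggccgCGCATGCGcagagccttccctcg
Atp5j, chr16:84835101-84835138, minus strand: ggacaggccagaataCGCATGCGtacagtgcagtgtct
Atp5k, chr5:108434426-108434463, minus strand: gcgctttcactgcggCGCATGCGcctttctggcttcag
Cox6a1, chr5:115349097-115349134, minus strand: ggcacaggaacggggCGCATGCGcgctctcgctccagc
Ndufa11, chr17:56717688-56717725, plus strand: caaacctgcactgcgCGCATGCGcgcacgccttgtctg
Ndufaf4, chr4:24897956-24897993, plus strand: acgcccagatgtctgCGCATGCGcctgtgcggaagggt
Averaged over both OVA comparisons as the median log2 ratio of the 9 classes, Ndufa11 was at -0.84, Atp5j at -0.83, Atp5g2 at -0.31, Atp5k at -0.21, Ndufaf4 at 0.04 and Cox6a1 at 0.20. By the GENCODE M21 annotation used below for lengths, the Atp5g2 and Atp5j windows lie inside the gene. The Atp5k window lies across its start. A match is a description of letters in the window, and binding was not measured.

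The nuclear set was lower in the OVA library of both pairs in all 9 classes, while the mitochondrial set was at or above its control. Levels are given as the percentage of a class's UMIs. In macrophage-like cells the nuclear members took 2.00% of UMIs in Vehicle, 1.48% in Vehicle-OVA, 1.81% in Ribavirin and 1.35% in Ribavirin-OVA, and the 13 mitochondrial members 2.94%, 3.67%, 3.09% and 4.78%. Both OVA libraries were therefore below both libraries without OVA for the nuclear set and above both for the mitochondrial set. T cell-like cells had nuclear percentages of 2.40, 1.38, 2.33 and 1.31 and mitochondrial ones of 3.29, 4.19, 3.22 and 4.55, with the OVA libraries on the same sides. In neutrophil-like cells the nuclear set stood at 1.64%, 0.416%, 1.24% and 0.750%, the lowest of the 9 classes in each library. Plasma cell-like cells held the highest nuclear percentages of the 9 classes, at 2.72, 2.11, 2.65 and 2.07.

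**Figure D1:**
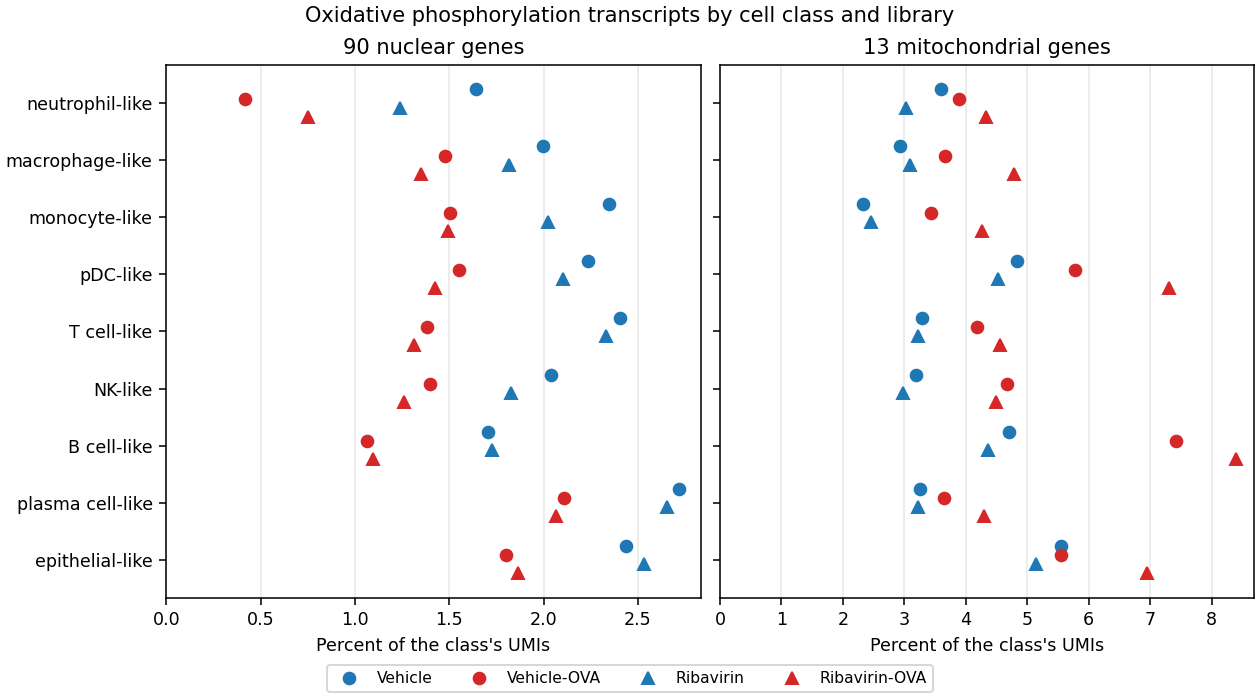
Percent of a class's UMIs (horizontal axis) from the 90 nuclear members (left) and the 13 mitochondrial members (right) in each of 9 cell classes (vertical axis), with 1 point per library. On the left both OVA libraries lie below both libraries without OVA in every class; on the right they lie at or above them, from 2.94% in Vehicle to 4.78% in Ribavirin-OVA in macrophage-like cells.

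As folds of the OVA library over its control, the nuclear set in macrophage-like cells stood at 0.741 (0.738 to 0.745) under vehicle and 0.745 (0.741 to 0.749) under ribavirin. For T cell-like cells the 2 values were 0.574 (0.570 to 0.578) and 0.563 (0.560 to 0.567). Over the 9 classes they ranged from 0.254 to 0.775 under vehicle and from 0.563 to 0.779 under ribavirin, and all 9 were below 1 under each of 4 scalings tried. The 2 OVA pairs share no library, but neither has a replicate. The mitochondrial set was 1.25-fold (macrophage-like) and 1.27-fold (T cell-like) under vehicle, and 1.55- and 1.42-fold under ribavirin. Over the 9 classes it ranged from 1.002 in epithelial-like to 1.58 in B cell-like cells under vehicle and from 1.34 to 1.93 under ribavirin, but with size factors by the median of ratios it lay below 1 under vehicle in 4 classes (pDC-like 0.956, T cell-like 0.939, plasma cell-like 0.842, epithelial-like 0.832) and under ribavirin in plasma cell-like cells (0.986).

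The ratio of mitochondrial to nuclear UMIs needs no common total. In macrophage-like cells it was 1.47 in Vehicle, 2.48 in Vehicle-OVA, 1.71 in Ribavirin and 3.54 in Ribavirin-OVA. The median over the 9 classes was 1.57, 3.09, 1.71 and 3.55 in the same order, so that the OVA libraries carried more mitochondrial UMIs per nuclear one. Plasma cell-like cells had the narrowest range, from 1.20 to 2.08, and neutrophil-like cells the widest, from 2.19 in Vehicle to 9.34 in Vehicle-OVA. Across the 36 combinations of class and library, the nuclear percentage had a Pearson r of -0.28 with the mitochondrial percentage and of 0.72 with that of the cytosolic ribosomal protein genes. These points share libraries and totals, and r is a description.

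Markers of other cells and other transcript groups moved with these libraries. In macrophage-like cells the 10 neutrophil markers summed to 381, 1132, 546 and 494 CPM (counts per 1000000 UMIs of the class), with none at 0. The same markers in T cell-like cells summed to 408, 1061, 597 and 363 CPM, also with none at 0. The 7 epithelial markers summed to 14.5, 87.2, 33.2 and 89.1 CPM in macrophage-like cells, again with none at 0. They came to 19.2, 24.1, 28.3 and 63.0 CPM in T cell-like cells, where 1 was at 0 in Vehicle. In both classes the epithelial markers were thus higher in each OVA library than in its control, although in T cell-like cells Vehicle-OVA was below Ribavirin. The cytosolic ribosomal protein genes, whose transcripts are also short, were 0.319- to 0.733-fold with OVA under vehicle and 0.510- to 0.731-fold under ribavirin. The part of these in the nuclear result was not tested.

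With a limit of 10% mitochondrial UMIs per cell the nuclear folds were nearly the same, at 0.745 and 0.753 in macrophage-like cells and from 0.249 to 0.770 and 0.565 to 0.777 over the 9 classes. The mitochondrial folds in macrophage-like cells became 1.21 and 1.45. In neutrophil-like cells the mitochondrial set changed direction under vehicle, from 1.08 (1.08 to 1.08) without the limit to 0.828 (0.824 to 0.831) with it, and it went from 1.43 to 1.12 under ribavirin. The limit took the neutrophil-like mitochondrial percentage from 3.60, 3.88, 3.02 and 4.33 to 1.73, 1.43, 1.74 and 1.94, more than in any of the other 8 classes.

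The share of the nuclear members also depended on the mitochondrial share of the cell itself. As a percentage of non-mitochondrial UMIs, macrophage-like cells of Vehicle with up to 1% mitochondrial UMIs had 2.26% from the nuclear members, those with 5% to 10% had 1.65%, and those with 10% to 20% had 1.16%. In Vehicle-OVA the same groups had 1.77%, 1.34% and 1.05%. Within each group up to 10% the OVA library was below its control in macrophage-like and T cell-like cells. Cells of Vehicle with 10% to 20% mitochondrial UMIs also had fewer UMIs, a median of 2504 against 10641 at 2% to 5%, and the nuclear-retained RNAs Malat1 and Neat1 took 4.32% of their non-mitochondrial UMIs, against 1.11% in cells with up to 1%. Neutrophil-like cells had another shape, with 1.39% in the lowest group of Vehicle and 2.08% in each of the next 2.

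**Figure D2:**
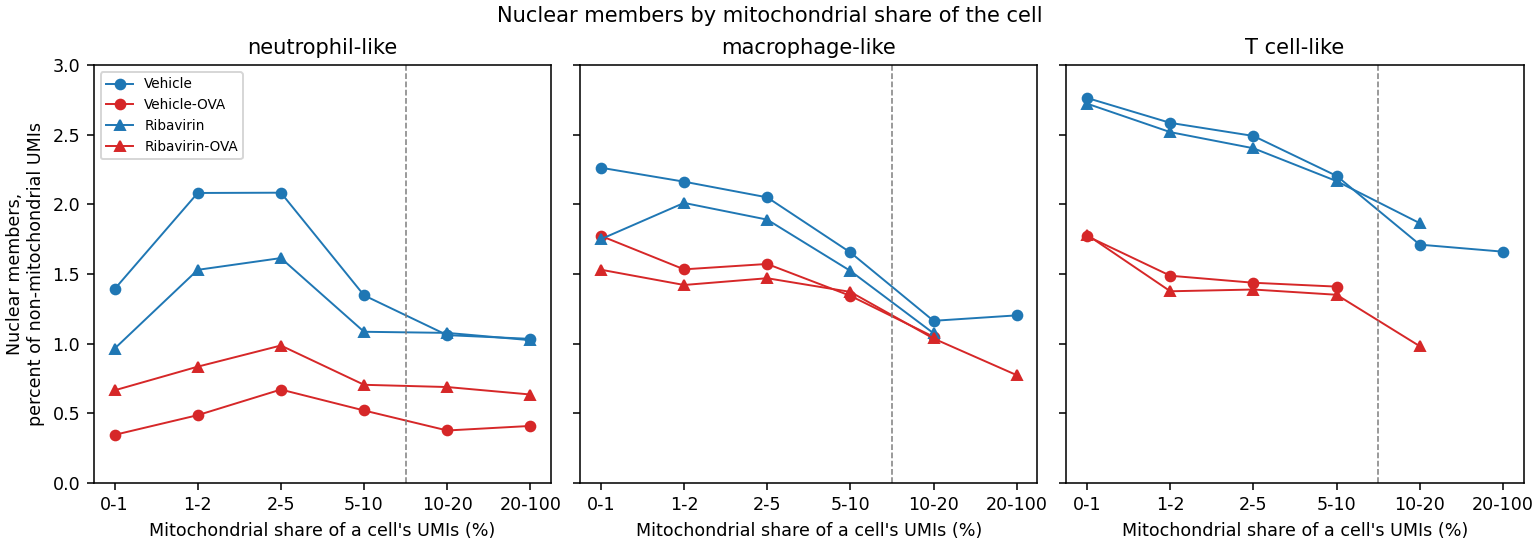
Nuclear members as a percent of non-mitochondrial UMIs (vertical axis) in cells grouped by the mitochondrial share of their UMIs (horizontal axis, percent), for 3 classes, with 1 line per library and a dashed line at 10%. In macrophage-like cells of Vehicle the value goes from 2.26% to 1.16% in the group of 10% to 20%, and the OVA lines lie below those of their controls up to 10%.

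As a mean CPM over the 36 combinations of 9 classes and 4 libraries, each complex had members far apart in level. UMIs count captured poly(A) molecules once each, so these levels were not divided by length. Cox4i1 was highest of complex IV at 724 CPM and Ndufa4l2 lowest at 0.375. In ATP synthase the extremes were Atp5e at 654 and Atp5s, a coupling factor, at 2.96, and in complex III Uqcrh at 562 and Uqcrc1 at 80.1. Complex II was the narrowest, from Sdhc at 64.0 to Sdha at 106. In complex I they were Ndufs8 at 96.7 and Ndufs1 at 38.6 for the core, Ndufa2 at 303 and Ndufa9 at 46.4 for the accessory subunits, and Ndufaf3 at 24.9 and Ndufaf6 at 5.02 for the assembly factors. The mitochondrial members ran higher, with mt-Atp6 at 8020, mt-Co3 at 7862, mt-Co2 at 6811, mt-Cytb at 4306 and mt-Nd4 at 2950, down to mt-Atp8 at 89.3 and mt-Nd6 at 41.0. On the plus strand the spans of mt-Atp8 (7766 to 7969) and mt-Atp6 (7927 to 8607) overlap, as do those of mt-Nd4l and mt-Nd4. How UMIs were divided within these pairs was not examined, so a low count of mt-Atp8 or mt-Nd4l need not mean little RNA. Many short nuclear members have near-identical processed pseudogenes, and fragments of mitochondrial DNA lie in the nuclear genome, so how the counting split such reads is uncertain for single members.

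Counted gene by gene, a nuclear member was called where its CPM (with 1 CPM added) differed by more than 1.5-fold and it had at least 50 UMIs in the class. In macrophage-like cells 89 of the 90 nuclear members passed that minimum. With OVA under vehicle 24 were lower and 2 higher (Sdhc and Cox7a1), against 9.72% and 24.8% of all 12137 genes tested. Under ribavirin 30 were lower and 6 higher, against 9.07% and 23.3%. The 6 were Ndufs1, Sdhc, Sdha, Atp5g3, Atp5a1 and Cox6a2. Of these, Cox6a2 was low in level, at 6.28 CPM in Ribavirin-OVA against 3.00 in Ribavirin. Cox7a1 was also low, at 3.86 CPM in Vehicle-OVA against 1.55 in Vehicle. Of the T cell-like values 87 passed, of which 57 were lower and 1 higher under vehicle (all genes 10.5% and 35.8%) and 56 lower and 1 higher under ribavirin (9.79% and 33.2%). In neutrophil-like cells 85 of 88 were lower under vehicle and none higher (46.1% and 10.9%), and 48 lower and none higher under ribavirin (9.62% and 22.9%). By the median of ratios the OVA counts of lower and higher nuclear members were 50 and 1 under vehicle and 48 and 1 under ribavirin in macrophage-like cells (all genes 16.1% and 13.8%, then 15.3% and 12.4%). They were 75 and 0, then 72 and 0, in T cell-like cells (21.3% and 12.99%, then 19.1% and 11.3%). In neutrophil-like cells they were 74 and 0, then 61 and 0 (21.1% and 24.3%, then 14.7% and 11.5%). Of the 13 mitochondrial members, 2 were higher and none lower in macrophage-like cells under vehicle, and 7 higher and 1 lower under ribavirin.

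The median log2 ratio of all genes was itself not at 0, so members are also given relative to it. With OVA under vehicle it was 0.21 in macrophage-like, 0.37 in T cell-like and -0.52 in neutrophil-like cells, and under ribavirin 0.21, 0.35 and 0.20. The median of the nuclear members was -0.41, -0.77 and -1.99 under vehicle, or -0.62, -1.14 and -1.47 relative to that of all genes. Under ribavirin it was -0.38, -0.74 and -0.61, or -0.59, -1.09 and -0.81 relative to all genes.

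Transcript length went with the ratio. The nuclear members have a median transcript length of 759 bases, against 2520.5 for the 16880 genes with at least 50 UMIs (GENCODE M21). With OVA under vehicle the median log2 ratio of all genes went from -0.37 in the shortest of 10 length groups of equal size to 0.39 in the longest in macrophage-like cells, from -0.52 to 0.73 in T cell-like cells and from -1.18 to -0.29 in neutrophil-like cells. Of the 89 nuclear members in macrophage-like cells, 55 were in the shortest group. Set against the median of its own length group, the median nuclear member was at -0.17 in macrophage-like, -0.41 in T cell-like and -0.95 in neutrophil-like cells under vehicle and at -0.21, -0.43 and -0.32 under ribavirin. Among the nuclear members themselves, the Spearman correlation of length with the ratio was 0.23, 0.33 and 0.19 under vehicle, in the same order. Under ribavirin it was 0.19, 0.32 and 0.32. The mitochondrial members had positive median log2 ratios in these classes. Their median coding length is 784 bases, which is not the same measure as transcript length. The part of length in the nuclear result was not tested beyond this.

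**Figure D3:**
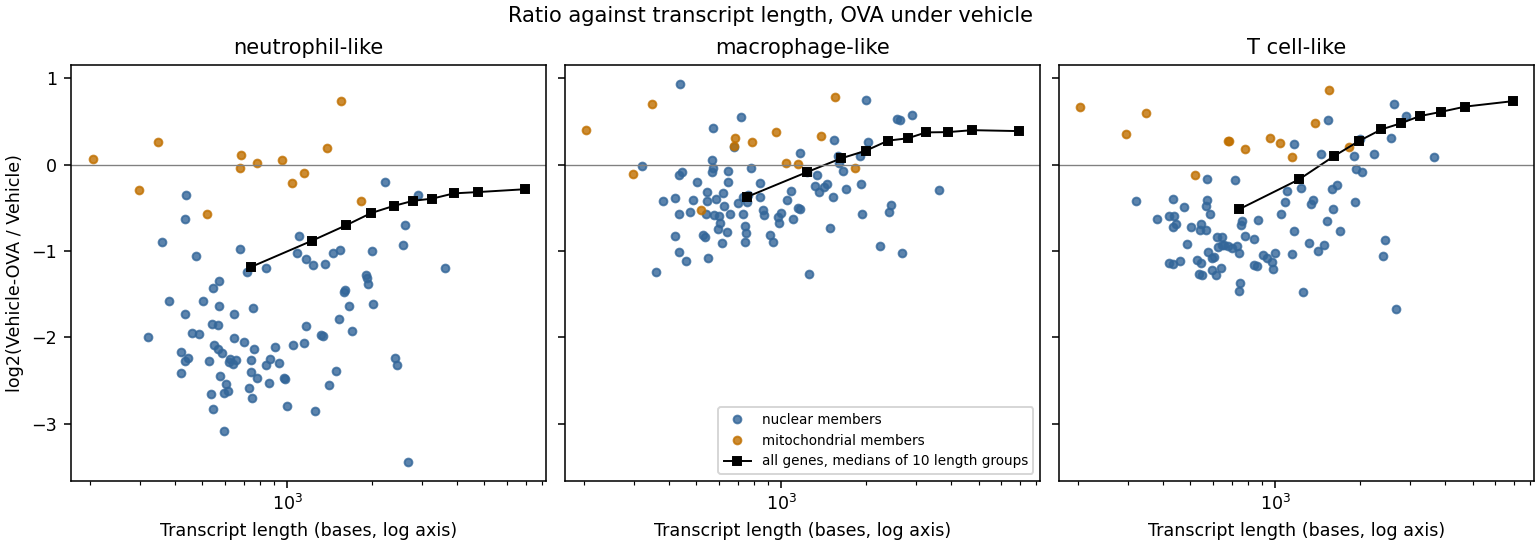
Log2 ratio of Vehicle-OVA over Vehicle (vertical axis) against transcript length in bases (horizontal log axis) for each nuclear and mitochondrial member in 3 classes, with the medians of all genes in 10 length groups as squares. The squares climb with length, from -0.37 to 0.39 in macrophage-like cells, and most nuclear members lie at short lengths, below the line in neutrophil-like and T cell-like cells.

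Across the 9 classes and both OVA pairs, 80 nuclear members passed the minimum in every class. Of these, 56 had a log2 ratio below 0 in all 18 combinations, against 7.93% of the 6429 genes that passed in every class, and none was above 0 in all 18, against 10.5%. The 5 lowest were Atp5g1, Ndufa13, Cox8a, Atp5j2 and Ndufa7, with medians (averaged over the 2 pairs) of -1.37, -1.22, -1.20, -1.08 and -1.01. Of the 13 mitochondrial members 4 were above 0 in all 18, mt-Nd1, mt-Atp8, mt-Nd3 and mt-Co1, and none below 0 in all. The 18 combinations come from 4 libraries and are no replicates.

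**Figure D4:**
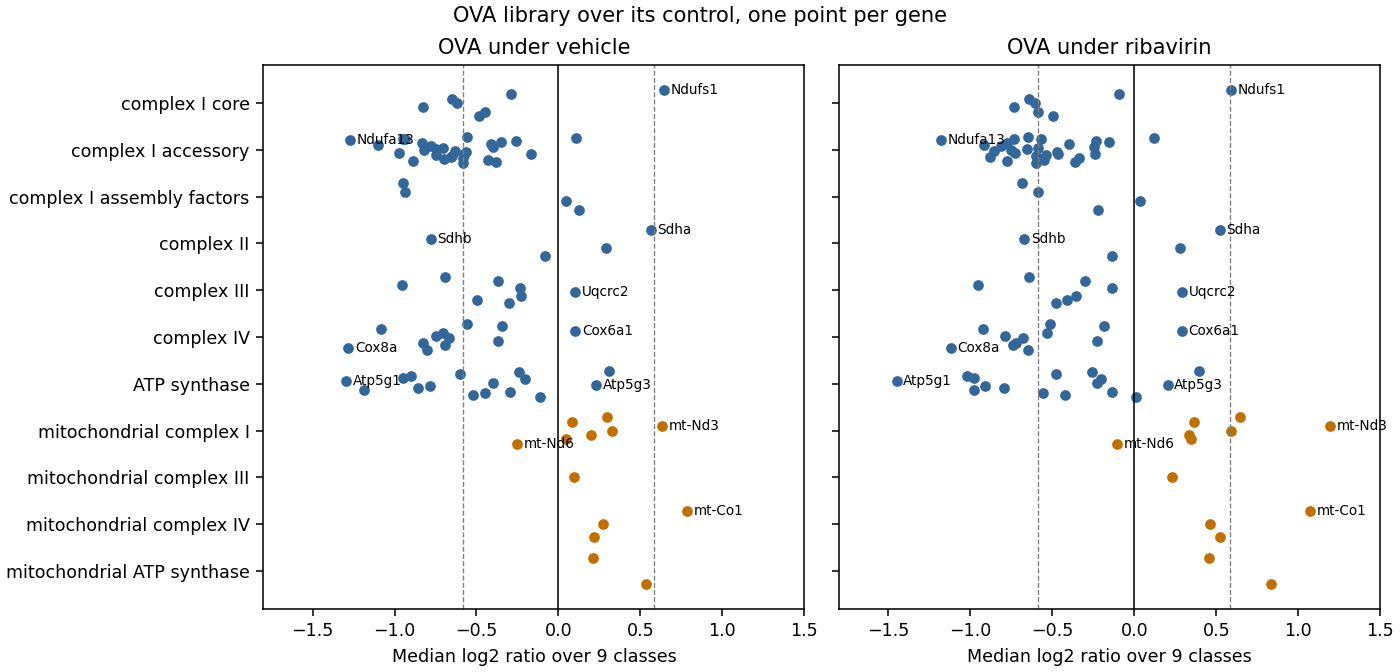
Median over 9 classes of the log2 ratio of the OVA library over its control (horizontal axis) for each nuclear (blue) and mitochondrial (orange) member by complex (vertical axis), under vehicle (left) and ribavirin (right), with dashed lines at 1.5-fold. Most blue points lie left of 0, with Ndufs1 and Sdha to the right, and all orange points except mt-Nd6 lie right of 0.

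Complex I, the NADH dehydrogenase, was lower with OVA as a group. Its core subunits, which carry the redox centres, had folds in macrophage-like cells of 0.805 (0.783 to 0.828) for the vehicle pair and 0.813 (0.789 to 0.838) for the ribavirin pair, and its accessory subunits 0.753- and 0.728-fold. Ndufs8, a core iron-sulfur subunit, had 108 CPM in Vehicle, 67.6 in Vehicle-OVA, 100 in Ribavirin and 61.9 in Ribavirin-OVA in macrophage-like cells. Both OVA libraries were below both libraries without OVA. Ndufa13, an accessory subunit also known as GRIM-19, had 343, 141, 311 and 129 CPM in the same cells. Its folds were 0.413 (0.394 to 0.433) and 0.416 (0.396 to 0.437). In T cell-like cells it had 473, 169, 466 and 162 CPM. Ndufs1, the largest core subunit and the one that holds several iron-sulfur clusters, went the other way. It stood at 26.1, 37.8, 25.6 and 41.6 CPM in macrophage-like cells, and for T cell-like cells at 35.7, 58.6, 36.8 and 55.9, above its control in both pairs, and was above 0 in 17 of 18 combinations. The exception was neutrophil-like cells under vehicle, with 15.1 CPM in Vehicle-OVA and 25.2 in Vehicle. Ndufa2, a small accessory subunit, had 312, 304, 300 and 275 CPM in macrophage-like cells and lay within 1.5-fold between any of the 4.

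Complex II is succinate dehydrogenase, also an enzyme of the TCA cycle and the complex with no mitochondrially encoded subunit. By total UMIs it did not share the shift in macrophage-like cells. In macrophage-like cells its OVA folds were 1.08 (1.05 to 1.12) for the vehicle pair and 1.15 (1.12 to 1.19) for the ribavirin pair, and over the 9 classes it ran from 0.443 to 1.16 and from 0.821 to 1.15, although by the median of ratios all 9 classes were below 1 in both pairs. Its subunits differed. Sdha, the flavoprotein that oxidizes succinate, had 90.9, 136, 83.3 and 141 CPM in macrophage-like cells, folds of 1.49 (1.41 to 1.58) and 1.69 (1.59 to 1.80). Sdhc, a membrane anchor, had 67.4, 114, 68.3 and 110 CPM. Sdhb, the iron-sulfur subunit, was lower, at 169, 119, 148 and 108 CPM, and it was below 0 in all 18 combinations, with a median of -0.73. Sdhd, the other anchor, was level in these cells, at 98.6, 93.1, 89.2 and 89.3 CPM. The transcript lengths are 2900 bases for Sdha, 1993 for Sdhc, 1231 for Sdhd and 1142 for Sdhb. All are above the median of 759 for the nuclear members. Their medians over the classes followed the same order, at 0.54, 0.28, -0.11 and -0.73. The part of length in the complex II values was not tested.

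Complex III, the cytochrome bc1 complex, was 0.762-fold (0.751 to 0.774) and 0.760-fold (0.748 to 0.773) with OVA in macrophage-like cells. Uqcrh, the hinge subunit, had 536, 368, 490 and 384 CPM there, with both OVA libraries below both others. Uqcrb, a small matrix-side subunit, had 267, 111, 248 and 103 CPM in T cell-like cells. Its core proteins were closer to level, Uqcrc1 at 80.6, 76.5, 73.7 and 67.3 CPM and Uqcrc2 at 80.5, 86.1, 72.7 and 82.8 CPM in macrophage-like cells. Over the classes Uqcrc2 had a median of 0.20 and Uqcrb of -0.95.

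Complex IV, cytochrome c oxidase, was 0.673-fold (0.667 to 0.679) and 0.701-fold (0.694 to 0.707) in macrophage-like cells. Cox4i1, a membrane subunit of its regulatory shell, had 901, 665, 840 and 691 CPM. Cox8a, a small subunit, had 934, 442, 809 and 416 CPM there and 1036, 244, 744 and 342 CPM in neutrophil-like cells. Cox5b, a zinc-binding subunit, had 501, 181, 477 and 167 CPM in T cell-like cells, 0.361-fold (0.340 to 0.383) and 0.351-fold (0.333 to 0.370). All these had both OVA libraries below both libraries without OVA. Cox6a1 was the opposite in macrophage-like cells, at 248, 332, 225 and 309 CPM. Cox7a2l, a factor of respiratory supercomplexes, had 350, 226, 332 and 283 CPM, and with ribavirin in the OVA pair it was at 1.25-fold (1.20 to 1.31).

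ATP synthase was 0.767-fold in both OVA pairs in macrophage-like cells (0.760 to 0.774 and 0.760 to 0.775). Its subunits differed. Atp5e, the epsilon subunit, had 817, 460, 759 and 385 CPM, while Atp5a1, the alpha subunit, had 286, 412, 267 and 411 CPM, so that the first was low and the second high in both OVA libraries. Atp5b, the beta subunit, had 363, 310, 336 and 288 CPM and Atp5d, the delta subunit, 258, 137, 251 and 131 CPM. Both were low in both OVA libraries. The ring of c subunits is encoded by 3 genes, Atp5g1, Atp5g2 and Atp5g3, known to differ in their import sequence and to yield the same mature protein. In macrophage-like cells Atp5g1 had 270, 132, 243 and 93.6 CPM, Atp5g2 498, 377, 460 and 426 CPM, and Atp5g3 223, 328, 192 and 296 CPM. Atp5g1 was thus low and Atp5g3 high in both OVA libraries, with Atp5g2 between. In T cell-like cells Atp5g1 had 315, 97.8, 297 and 85.5 CPM and Atp5g3 332, 293, 323 and 312. The medians over the classes were -1.37 for Atp5g1, -0.31 for Atp5g2 and 0.22 for Atp5g3.

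**Figure D5:**
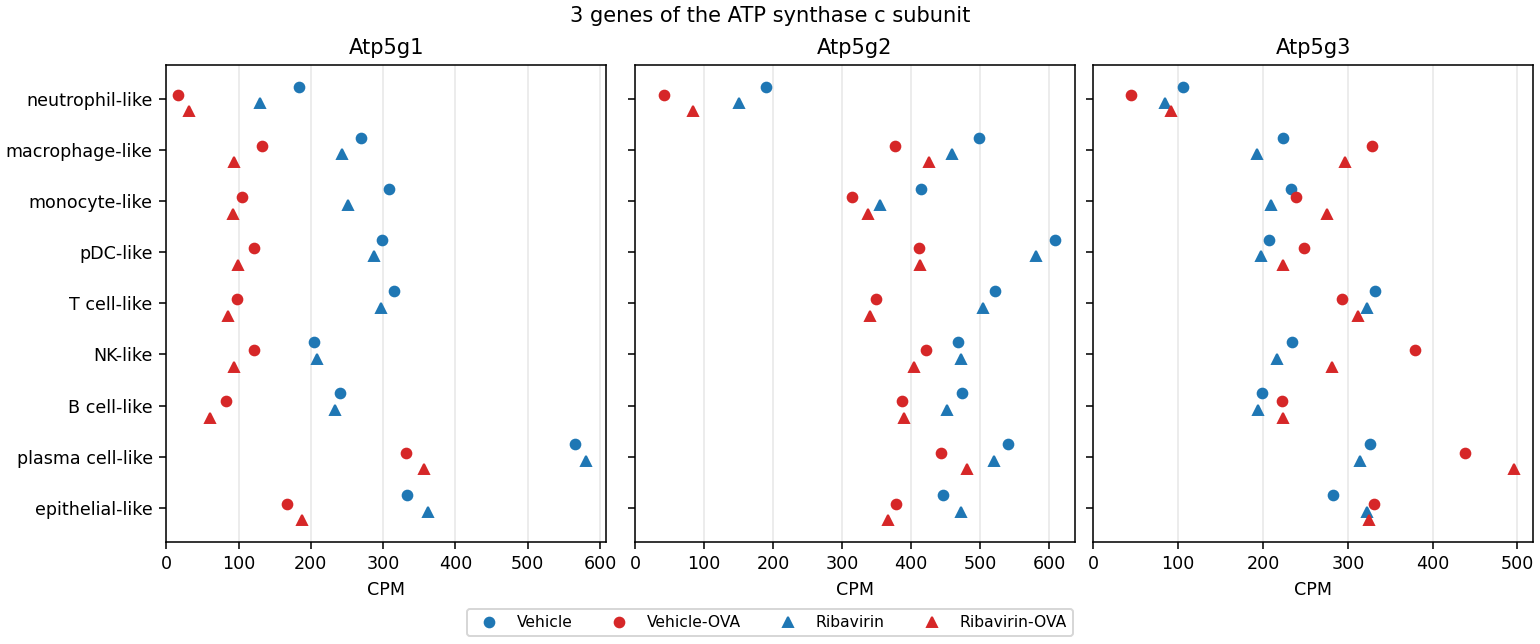
CPM (horizontal axes, each panel on its own scale from 0) of Atp5g1, Atp5g2 and Atp5g3 in 9 cell classes (vertical axis), with 1 point per library. Atp5g1 is lower in both OVA libraries in every class, while Atp5g3 is higher in both in macrophage-like cells, at 328 and 296 against 223 and 192 CPM.

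The mitochondrial members did not move as a block. mt-Co1, the catalytic subunit of complex IV, had 3787, 6527, 4033 and 8960 CPM in macrophage-like cells. Its T cell-like values were 4208, 7652, 4228 and 8882 CPM. mt-Nd3, a subunit of complex I, had 498, 811, 497 and 1265 CPM in macrophage-like cells. Both OVA libraries were above both others for each. mt-Cytb, the mitochondrial subunit of complex III, had 2979, 2984, 3254 and 3623 CPM, and mt-Atp6, of the proton channel of ATP synthase, 5317, 6146, 5788 and 7946 CPM. mt-Atp8 had 51.3, 68.2, 53.9 and 89.2 CPM and mt-Nd5 378, 368, 375 and 476 CPM. mt-Nd6, the sole protein gene on the light strand, was low in both OVA libraries, at 32.2, 22.2, 36.0 and 22.9 CPM. It was below 0 in 13 of 18 combinations, and the remaining mt-Nd1, mt-Nd2, mt-Nd4, mt-Nd4l, mt-Co2 and mt-Co3 had medians over the classes of 0.47, 0.22, 0.46, 0.27, 0.37 and 0.37.

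As shares of the mitochondrial UMIs, which do not depend on the total, mt-Co1 took on average over the 9 classes 13.3% in Vehicle, 18.1% in Vehicle-OVA, 13.5% in Ribavirin and 19.0% in Ribavirin-OVA. Its lowest class value with OVA, 17.0%, was above its highest without it, 15.3%. The average for mt-Cytb was 10.8%, 9.18%, 10.8% and 8.74%, and for mt-Nd6 0.123%, 0.0815%, 0.111% and 0.0732%. For mt-Nd3 it was 1.59%, 2.00%, 1.54% and 2.35%, and its lowest class value with OVA, 1.78%, was just under its highest without it, 1.80%.

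Outside the neutrophil-like class the nuclear set differed little between the ribavirin and vehicle libraries, with folds from 0.863 in monocyte-like to 1.04 in epithelial-like cells without OVA and from 0.903 in NK-like to 1.04 in epithelial-like cells with OVA. These pairs reuse the libraries of the OVA pairs. In macrophage-like cells the nuclear set was 0.909-fold (0.906 to 0.913) without OVA and 0.914-fold (0.909 to 0.920) with OVA, and the mitochondrial set 1.05- and 1.30-fold. No nuclear member was called without OVA, lower or higher, against 0.379% and 1.89% of all genes. With OVA 1 was higher and none lower, against 4.01% and 2.37%. The 1 was Cox8b, a muscle isoform with 1 UMI in Vehicle-OVA. In T cell-like cells the nuclear folds were 0.970 and 0.951, with 1 member lower without OVA (all genes 0.252%) and none with OVA (3.19%), and none higher in either pair (2.11% and 4.17%). The 1 was Cox6a2, at 0.831 CPM in Ribavirin against 1.80 in Vehicle.

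Neutrophil-like cells had the nuclear folds farthest from 1 in 3 of the 4 pairs, the exception being OVA under ribavirin, where T cell-like cells did. The nuclear set was at 0.254 of its control (0.252 to 0.255) with OVA under vehicle, 0.605-fold (0.600 to 0.609) with OVA under ribavirin, 0.756-fold with ribavirin without OVA and 1.80-fold (1.79 to 1.82) with ribavirin in the OVA pair. These depended on the scaling, and with size factors by the median of ratios they were 0.407, 0.514, 0.824 and 1.04. Atp5g1 had 183, 16.01, 130 and 31.9 CPM, which is 11.5-fold lower under vehicle and 4.07-fold lower under ribavirin. Ndufa5, an accessory subunit of complex I, had 73.8, 7.86, 50.02 and 17.0 CPM. Both were lowest in Vehicle-OVA. With ribavirin in the OVA pair 76 nuclear members were higher and none lower, against 52.9% and 5.41% of all genes. By the median of ratios only 1 was higher and 2 lower, against 7.82% and 17.8%. The assembly factor Ndufaf3 was at 3.22-fold (2.63 to 3.93) by total UMIs. Without OVA 3 were lower and none higher, against 2.12% and 3.92%.

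The neutrophil-like class itself differed between libraries. Cells with a UMI of Siglecf, a lectin of eosinophils and of a tissue neutrophil state, made up 36.4% of the class in Vehicle, 8.76% in Vehicle-OVA, 27.6% in Ribavirin and 23.3% in Ribavirin-OVA. The nuclear members took 2.23%, 0.931%, 2.02% and 1.18% of the UMIs of these cells, and 1.19%, 0.338%, 0.901% and 0.579% in cells without a Siglecf UMI. In cells with secondary granule transcripts (at least 2 of Ngp, Camp and Ltf) they took 1.13%, 0.531%, 0.966% and 0.683%. Within these groups the fold with OVA under vehicle was 0.417, 0.284 and 0.470, and with ribavirin in the OVA pair 1.26, 1.71 and 1.29. With OVA under ribavirin the folds were 0.583, 0.642 and 0.707. Vehicle-OVA was thus lowest in all 3 groups. Within each the vehicle fold and the ribavirin fold of the OVA pair were closer to 1 than in the class as a whole, while with OVA under ribavirin that of the cells with Siglecf was farther from 1 than the 0.605 of the class. This split was chosen after seeing the data.

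Between classes, macrophage-like cells carried more of the nuclear members than the neutrophil-like class as a whole. In the nuclear set the fold was 1.22 in Vehicle, 3.56 in Vehicle-OVA, 1.46 in Ribavirin and 1.80 in Ribavirin-OVA. By the median of ratios the fold in Vehicle was 1.07. Neutrophil-like cells with a Siglecf UMI were above the macrophage-like class in Vehicle (2.23%) and Ribavirin (2.02%). They were below it in Vehicle-OVA (0.931%) and Ribavirin-OVA (1.18%). Of 89 nuclear members 69 were higher in macrophage-like cells in all 4 libraries, against 47.9% of all 13629 genes tested, and 68 averaged more than 1.5-fold higher, against 41.2%. The largest means were those of Ndufc2, a membrane subunit of complex I (2.61 on the log2 scale), Atp5g2 (2.12), Ndufa9 (1.71), Atp5g3 (1.70) and Ndufa5 (1.70). Ndufc2 had 314, 209, 288 and 189 CPM in macrophage-like and 81.9, 14.3, 61.3 and 32.6 CPM in neutrophil-like cells. At the other end were Ndufaf7, a methyltransferase of complex I assembly (-0.42), Cox8b (0.06), Ndufa3 (0.14), Cox7a2 (0.15) and Ndufa7 (0.16). The mitochondrial set had folds of 0.816, 0.945, 1.02 and 1.11 in the same order, but 1.64, 2.40, 1.67 and 2.17 with the 10% limit, so that its direction in Vehicle and Vehicle-OVA depended on that limit. Without it 4 of the 13 mitochondrial members were lower in macrophage-like cells in all 4 libraries, mt-Cytb, mt-Nd2, mt-Nd4 and mt-Nd4l, against 22.6% of all genes.

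Cycling cells, those with UMIs of at least 3 proliferation markers, had more of the nuclear set within the T cell-like class. The percentages were 2.96 against 2.27 for the other T cell-like cells in Vehicle, 1.96 against 1.31 in Vehicle-OVA, 2.89 against 2.19 in Ribavirin and 1.75 against 1.26 in Ribavirin-OVA. There were 468, 50, 324 and 71 such cells. They were also deeper, with median UMIs of 11632.5 against 3999 in Vehicle and 11193.5 against 4700 in Vehicle-OVA, and the part of depth was not tested. The cycling and the other T cell-like cells were each lower in the OVA libraries. Macrophage-like cells had the same direction, at 2.29 against 1.99, 1.82 against 1.47, 1.91 against 1.81 and 1.65 against 1.34. Their cycling cells numbered 77, 20, 47 and 30.

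Several members are isoforms known from a few tissues, and their levels differed between classes. Cox6a2, the heart and muscle form of a complex IV subunit, had 1199, 731, 1018 and 743 CPM in pDC-like (plasmacytoid dendritic) cells. It was detected in 84.7%, 84.1%, 84.2% and 81.0% of these cells, at median depths of 7294 to 10297 UMIs. In T cell-like cells, which are not known to express it, the shares were 0.877%, 0.253%, 0.446% and 0.702%, at median depths of 4149.5 to 5263 UMIs, and in macrophage-like cells, at depths of 9222 to 10810, 4.22%, 6.01%, 2.64% and 5.40%. NK-like cells held 109, 7, 42 and 24 UMIs of Cox6a2 against 9, 0, 4 and 1 of the pDC marker Siglech, whereas pDC-like cells had 46.6, 21.1, 42.0 and 21.8 Cox6a2 UMIs per 100 Siglech UMIs. Cox6a2 was among the 10 leading genes of the pDC-like class but was no marker used to define it.

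The other such isoforms were rare. Cox8b, the muscle form of Cox8a, reached 37.3, 13.8, 37.1 and 27.5 CPM in epithelial-like cells, and in macrophage-like cells it had 53 UMIs in Vehicle and 1 in Vehicle-OVA, a CPM ratio of 0.0445 (0.00111 to 0.259). Cox4i2, a form known from lung and from low oxygen, was highest in plasma cell-like cells, at 4.23, 23.8, 6.36 and 7.43 CPM. Cox6b2, a testis form, had 17.5, 15.97, 13.3 and 17.6 CPM in monocyte-like cells, and Cox7a1, of heart and muscle, 8.69, 15.8 and 9.11 CPM in the olfactory neuron-like cells of Vehicle, Ribavirin and Ribavirin-OVA. Ndufa4l2, known from low oxygen, was at 1.90, 1.51, 1.83 and 1.504 CPM in plasma cell-like cells.

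Some members did not follow the rest over classes and libraries. Among nuclear members with a mean of at least 20 CPM, the Pearson r of log2 CPM with the sum of the other nuclear members over the 36 combinations was lowest for Ndufs1 (-0.01), Sdha (0.01), Cox6a2 (0.10), Atp5sl (0.25), an assembly factor despite its name, and Cox7a2l (0.39). By contrast Ndufa11 and Cox7b, subunits of complexes I and IV, each had 0.98.

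Other mitochondrial gene lists were compared with the members, as counts past 1.5-fold. The shares of all genes called higher and lower with OVA under vehicle were 24.8% and 9.72% (macrophage-like), 35.8% and 10.5% (T cell-like) and 10.9% and 46.1% (neutrophil-like). In macrophage-like cells with OVA under vehicle, 11 of the 76 mitochondrial ribosomal proteins measured were lower and 1 higher, with a median of -0.21. Of 17 TCA cycle enzymes 4 were higher and none lower (median 0.25), and of 8 regulators of mitochondrial biogenesis 3 were higher and none lower (median 0.27). For 18 genes of mitochondrial DNA expression the counts were 1 higher and 2 lower, and for 13 genes of electron carriers and complex IV assembly 1 and 1. Among T cell-like cells 39 mitochondrial ribosomal proteins were lower and 1 higher (median -0.59), and 5 of the 8 regulators were higher (0.96). In neutrophil-like cells 75 mitochondrial ribosomal proteins were lower and 1 higher (-1.86), and 13 TCA cycle enzymes were lower and none higher. The medians of all genes given above stand beside these.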

How the data were processed

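Raw UMI count matrices (gene by cell) were deposited by the authors, 1 per library; Cell Ranger 5.0.0 and mm10 are credited to the submitters' processing notes. No column of per-sample values was left unused (0). From these counts, cells with at least 200 genes and 500 UMIs were kept. Each was scored per class by the mean, over the markers, of log2-scaled UMIs relative to the cell's total. The best class needed UMIs of at least 2 different markers and a score at least 2 times that of the next. Cells below that factor (15.9% to 21.0% of a library) and cells with too few markers (0.745% to 2.26%) were left out. Doublet scores, at a rate of 0.4% per 1000 barcodes, were used as an alternative. Counts were added up over the cells of a class in each library and scaled to CPM of all UMIs. Folds have exact conditional binomial and shares exact Clopper-Pearson intervals at 95%; a count of 0 was read against a floor of 3 counts. No difference was tested, since each group has 1 library. A member or gene was called past 1.5-fold with 1 CPM added and at least 50 UMIs in the class. Genes to be named were the 13 mitochondrial members, tissue isoforms and the 3 highest and lowest nuclear members per class and pair. Added to these were the 5 at each end of the class contrast, the 5 least like the rest, and the highest and lowest of each complex. Not all of the highest and lowest per class and pair are reported. Further subunits were named after their values were seen. Members and lists were chosen with earlier results of these data known. Lengths came from GENCODE M21 (GRCm38), perhaps not the annotation the authors used; 98.7% of identifiers matched, and promoters came from RefSeq (GRCm38.p6). Python 3.11.15, numpy 2.4.6, scipy 1.17.1, pandas 2.3.3, scikit-learn 1.9.0 and matplotlib 3.10.9 were used, and the scripts were tested on simulated data.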

Additional observations from a re-analysis of the deposited data

Results flagged for a closer look

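In 7 cases the ribavirin library lay below its control without OVA and above it with OVA. None of these differences was tested, since each group has 1 library. In neutrophil-like cells the nuclear members were 0.756-fold with ribavirin without OVA and 1.80-fold with it in the OVA pair. For the mitochondrial members the corresponding folds were 0.840 and 1.11 in neutrophil-like, 0.936 and 1.26 in pDC-like, 0.977 and 1.09 in T cell-like, 0.927 and 1.13 in B cell-like, 0.990 and 1.18 in plasma cell-like and 0.927 and 1.25 in epithelial-like cells. With the 10% limit the mitochondrial folds were 1.00 and 1.35 in neutrophil-like and 1.00 and 1.08 in B cell-like cells, so that neither class lay below 1 without OVA. By the median of ratios the neutrophil-like nuclear folds were 0.824 and 1.04, and the neutrophil-like mitochondrial folds were 0.915 and 0.643, both below 1.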

How the results depend on the processing

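Of 110 alternatives to the 10 set folds in macrophage-like cells and against neutrophil-like cells, 106 kept their direction. The 4 that did not concern mitochondrial members: ribavirin without OVA at under 5% mitochondrial UMIs (0.971), and macrophage-like over neutrophil-like in Vehicle at under 10% (1.64), under 5% (1.91) and as a mean over cells (1.11). The cause was not tested. Folds below run OVA under vehicle, OVA under ribavirin, ribavirin without OVA, ribavirin with OVA, then macrophage-like over neutrophil-like, for those that moved beyond their counting interval. Nuclear: under 10%, 0.745, 0.753, 0.914, 0.924, 1.16; under 5%, 0.756, 0.762, 0.920, 0.927, 1.16. Mean over cells gave 0.760, 0.777 and 0.898. Without mt- genes in the total they were 0.747, 0.759, 0.925 (ribavirin with OVA) and 1.21, and without ribosomal protein genes also 0.678, 0.695, 0.903, 0.926 and 1.36. The median of ratios gave 0.625, 0.628, 0.886, 0.890 and 1.07. Leaving out scored doublets gave 0.740 with OVA under ribavirin. Mitochondrial: under 10%, 1.21, 1.45, 1.02 and 1.22; under 5%, 1.10, 1.25 and, with OVA, 1.10. Mean over cells gave 1.20, 1.42, 1.12 and 1.32. Without mt- genes they were 1.26, 1.57, 1.32 (ribavirin with OVA) and 0.811, and without ribosomal protein genes also 1.14, 1.44, 1.05, 1.32 and 0.912. The median of ratios gave 1.05, 1.30, 1.03, 1.27 and 0.719. Leaving out doublets gave 1.06 for ribavirin without OVA and 0.859 between classes, and 1000 UMIs and 500 genes per cell 0.827 between classes. A class rule of 1.5 times the next, chosen after seeing the data, gave nuclear folds of 0.727, 0.928 (ribavirin with OVA) and 1.20 and mitochondrial ones of 1.22, 1.52, 1.32 (ribavirin with OVA) and 0.823; the neutrophil split, and the 10% limit and the median of ratios in other classes, were also added then. Counts of nuclear members past the fold in macrophage-like cells with OVA became 6 lower and 0 higher in both pairs at a fold of 2, and 50 and 48 lower with 1 higher each by the median of ratios. Under vehicle 1 was higher with at least 500 UMIs in the class or with 10 CPM added. For ribavirin without OVA 1 was lower under 10% and by the median of ratios, and with OVA 0 were higher at a fold of 2, at 500 UMIs or with 10 CPM added. Counts below about 50 UMIs limit single members, and 1 library per group limits every comparison. No paired analysis was possible because each group has 1 library and the labels carry no replicate number.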
